A study of Mus musculus with 6 samples.

Results

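Immediate early genes are switched on within minutes of a stimulus, before any new protein is needed, and heat shock genes are switched on when proteins in the cell misfold. This account follows 36 such genes, a list of symbols, in brain endothelial cells of mice labelled as lacking the glucose carrier GLUT1 in the endothelium. The 36 were found by symbol among the 23329 symbols of the deposited count files, and all 36 had enough counts to be tested. They fall into 8 groups: 9 genes of the AP-1 group, 4 Egr genes, 3 Nr4a genes, 4 Dusp genes, 5 genes of RNA decay and growth arrest, 4 genes of the Ier and Csrnp group, 2 genes best known from neuronal activity, and 5 heat shock genes. The groups follow the textbook roles of the genes and not their values in these libraries.

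RNA was sequenced from endothelial cells that were taken from adult C57BL/6 mice of 8 weeks with magnetic beads (MACS), went straight into lysis buffer, and were not cultured. One group is labelled GLUT1EC-/-, for a deletion of Slc2a1, the gene for GLUT1, in endothelial cells, and the other is WT littermates. Each group has 3 libraries, named here WT 1 to 3 and GLUT1EC-/- 1 to 3, and the animal numbers in the labels make them 3 separate mice a group. The labels name no Cre driver, and bead-sorted cells can hold other cell types. Levels are CPM, each gene's count scaled to a common library total with edgeR's TMM factors. A fold change is the log2 fold change of GLUT1EC-/- over WT from edgeR's quasi-likelihood test, with its standard error (SE). A gene is said to have risen or fallen where its Benjamini-Hochberg adjusted p over all 14838 genes tested was under 0.05.

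Growth factors, calcium, stress kinases and shear stress reach these genes through the ERK and p38 kinases, which activate CREB and the ternary complex of SRF and Elk factors already bound at their promoters. The proteins include transcription factors (Fos and Jun families, Egr and Nr4a), phosphatases that switch the kinases off again (Dusp), and proteins that degrade their short-lived mRNAs (Zfp36 and its relatives). Heat shock genes answer to HSF1, which binds repeats of a short unit in their promoters, and encode chaperones that refold proteins. Tissue dissociation is known to switch on both sets in freshly isolated cells, so their levels in sorted endothelium need not be those in the intact vessel. No undissociated sample was analysed here, and the part of isolation in these levels was not tested.

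RefSeq promoter windows on GRCm38.p6 were at hand for 31 of the 36 genes, not for Fosl1, Egr1, Egr3, Ier2 and Arc. The 250 bases before each RefSeq start were searched on both strands for 6 motifs, and positions below are counted back from that start. The cAMP response element core, TGACG or its reverse CGTCA, is shown first because all 3 Nr4a genes hold 4 copies each. It was in 15 of the 31 windows and in 17.8% of all 32851 RefSeq windows of this length. Capitals mark the core in these stretches of Nr4a1 (chr15:101266606-101266815, plus strand), Nr4a2 (chr2:57124064-57124213, minus strand), Nr4a3 (chr4:48045065-48045169, plus strand), Fos (chr12:85473750-85473839, plus strand) and Dusp1 (chr17:26508603-26508672, minus strand).
Nr4a1: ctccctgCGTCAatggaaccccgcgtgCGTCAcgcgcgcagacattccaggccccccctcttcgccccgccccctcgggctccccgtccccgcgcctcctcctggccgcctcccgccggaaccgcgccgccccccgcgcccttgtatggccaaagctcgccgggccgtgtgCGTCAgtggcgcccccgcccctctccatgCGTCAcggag
Nr4a2: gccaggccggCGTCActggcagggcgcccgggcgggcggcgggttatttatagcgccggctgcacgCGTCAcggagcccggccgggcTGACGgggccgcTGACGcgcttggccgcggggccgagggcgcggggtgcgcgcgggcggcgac
Nr4a3: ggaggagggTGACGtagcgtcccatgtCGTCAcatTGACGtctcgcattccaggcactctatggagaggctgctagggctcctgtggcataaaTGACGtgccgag
Fos: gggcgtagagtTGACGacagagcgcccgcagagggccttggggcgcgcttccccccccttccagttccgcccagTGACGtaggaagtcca
Dusp1: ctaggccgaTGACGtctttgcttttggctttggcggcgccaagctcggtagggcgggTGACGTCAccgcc

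The Dusp1 stretch ends in a full element, TGACGTCA, which contains the core on both strands. Among the 31 windows the full element was also found in Btg2, 2 in all, against 1.55% of all windows. The RefSeq starts of Nr4a1 and Dusp1 lie 12577 and 53656 bases inside the gene as GENCODE M21 draws it, because GENCODE also lists transcripts that start upstream, and the last bases of the Nr4a3 stretch lie in the first exon of a GENCODE transcript.

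The heat shock genes are shown for a pair of facing heat shock units, GAANNTTC or TTCNNGAA, which was found in 4 of the 5 of them (Hspa1a, Hspa1b, Hspb1 with 2 pairs, and Hsph1), in 6 of the 31 windows, and in 12.8% of all windows. The other 2 windows were those of Fosl2 and Jun. Capitals mark the pairs in Hspa1a (chr17:34972237-34972276, minus strand), Hspa1b (chr17:34959319-34959358, minus strand) and Hspb1 (chr5:135887789-135887838, plus strand).
Hspa1a: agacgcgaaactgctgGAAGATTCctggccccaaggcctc
Hspa1b: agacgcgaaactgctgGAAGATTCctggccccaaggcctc
Hspb1: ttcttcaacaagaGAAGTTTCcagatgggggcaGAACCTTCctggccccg

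The Hspa1a and Hspa1b stretches are identical, and over the whole 250 bases the pair differs at 3. Of the remaining motifs, the EGR site GCGNGGGCG was in 8 of the 31 windows, among them Nr4a1 and Nr4a2, against 4.70% of all windows. The CArG box, which SRF binds, was in 2 (Dusp5 and Zfp36) against 1.47%, and the AP-1 site TGANTCA was in 1 (Zfp36l1) against 6.75%. These are matches of letters and show no binding, and a window without a match shows only that these letters are not in it.

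Libraries held 31874662 to 39424384 counts. The deleted gene did not separate the groups: Slc2a1 was at 3984, 4479 and 4172 CPM in WT libraries against 3735, 5414 and 3893 CPM in GLUT1EC-/- (log2 fold change 0.05, SE 0.18, adjusted p = 0.921). Which exons were deleted is not given in the labels, so the gene's count does not check the genotype labels, and GLUT1EC-/- means here the libraries labelled so. GLUT1EC-/- 2 stood apart from the rest, with a mean correlation of log2 CPM with its own group of 0.9638 against 0.9717 to 0.9889 for the other libraries and a TMM factor of 0.8841, the lowest of the 6. Results are therefore given with and without it. Endothelial markers summed to 14496 to 15679 CPM in WT libraries against 13984 to 17288 CPM in GLUT1EC-/-, and the groups overlapped. The labels also place the mice in a number series of the 200s (WT 1, WT 2, GLUT1EC-/- 1) and one of the 500s (WT 3, GLUT1EC-/- 2 and 3), without saying what the series mean.

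Most of the 36 genes were among the more abundant transcripts of these cells in both genotypes. Divided by exon length, to compare genes with each other, their median percentile was 98.97 among 14667 genes. In every one of the 6 libraries 28 of the 36 were in the top 10%, 24 in the top 5% and 15 in the top 1%. Junb led in WT with a mean of 1699 CPM per kilobase of exon, followed by Egr1 with 1373, Fos with 1353, Jun with 973 and Fosb with 918. The lowest were Egr4, a factor known from neurons, at 0.705 CPM per kilobase and Npas4, a neuronal activity gene, at 0.499 CPM per kilobase. Together the 36 genes took 3.23% to 4.80% of all counts in a library.

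**Figure D1:**
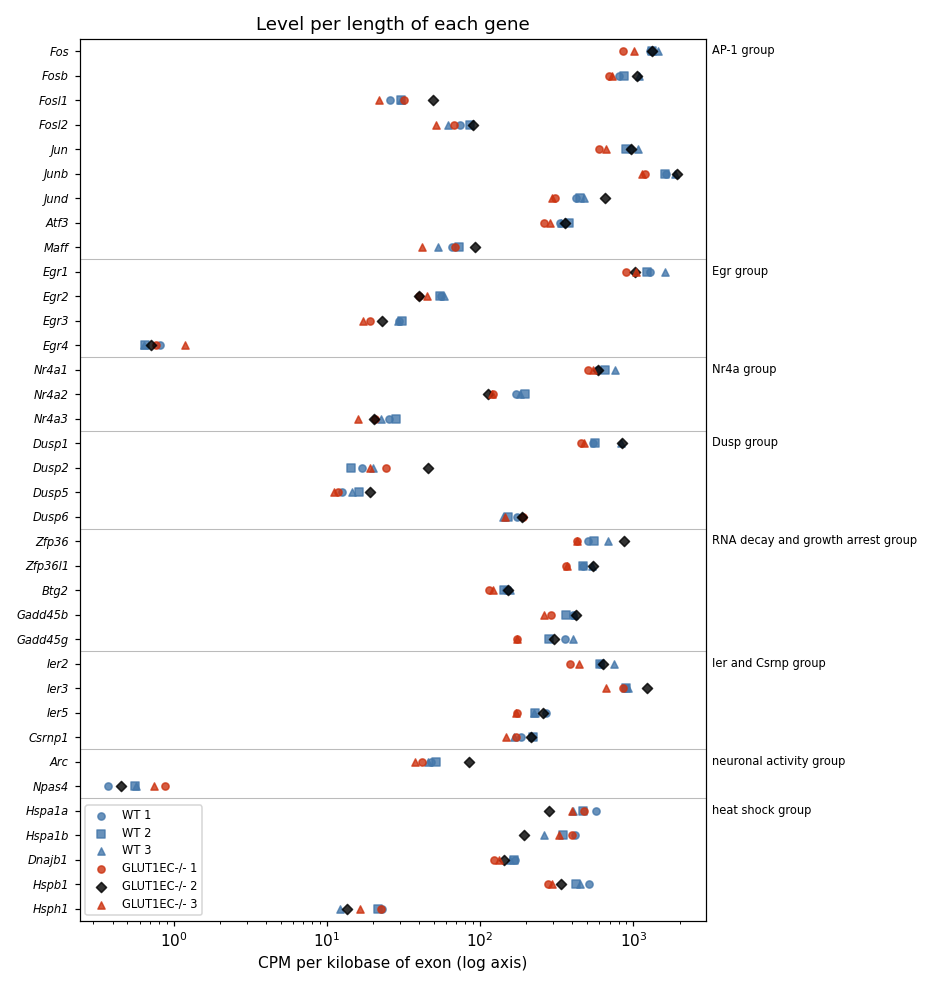
Level of each of the 36 genes in CPM per kilobase of exon (log axis), 1 point per library, with genes in their 8 groups and the libraries told apart by colour and shape. Most genes lie above 100 CPM per kilobase in all 6 libraries, while Egr4 and Npas4 lie near 1 or below.

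No member of the 36 passed the adjusted threshold with all 6 libraries, where 1.31% of all tested genes did, 0.863% higher and 0.445% lower. At an unadjusted p under 0.05, 8 were lower and 1 (Dusp2) was higher in GLUT1EC-/-, against 6.31% and 8.16% of all genes. At an adjusted p under 0.1, 3 of the 36 passed (Egr3, Nr4a2 and Hspb1), against 2.89% of all genes. With DESeq2, which passed 5.48% of the genes it tested and 2.26% as lower, 4 of the 36 were called lower (Egr2, Egr3, Nr4a2 and Hspb1, 11.1%). With limma-voom 0 of the 36 were called, and 145 of all genes were. In 28 of the 36 (77.8%) the fold change was below 0, against 48.5% of all tested genes, and the median log2 fold change was -0.21 against 0.01. A difference in bulk RNA such as this cannot be told apart from a difference in the mix of cells, since fewer cells that express a gene and less RNA per cell give the same count.

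The 36 genes split by how GLUT1EC-/- 2 behaved. Taking each gene's log2 distance from its WT mean, the median over the 36 was -0.41 in GLUT1EC-/- 1, 0.02 in GLUT1EC-/- 2 and -0.41 in GLUT1EC-/- 3, and it lay between -0.03 and 0.05 in the WT libraries. GLUT1EC-/- 2 was the highest of its group in 26 of the 36 genes (72.2%), against 42.0% of all genes, and the highest of all 6 libraries in 13 (36.1%), against 33.3%. It was the lowest of all 6 in 4 genes, against 34.8% of all genes. In 7 genes all 3 GLUT1EC-/- libraries still lay below all 3 WT libraries: Egr1, Egr2, Egr3, Nr4a2, Nr4a3, Dnajb1 and Hspb1. Groups that do not overlap in this direction were found in 11.2% of all genes and in 19.4% of the 36, and 0 of the 36 did so in the other direction, against 11.7% of all genes.

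**Figure D2:**
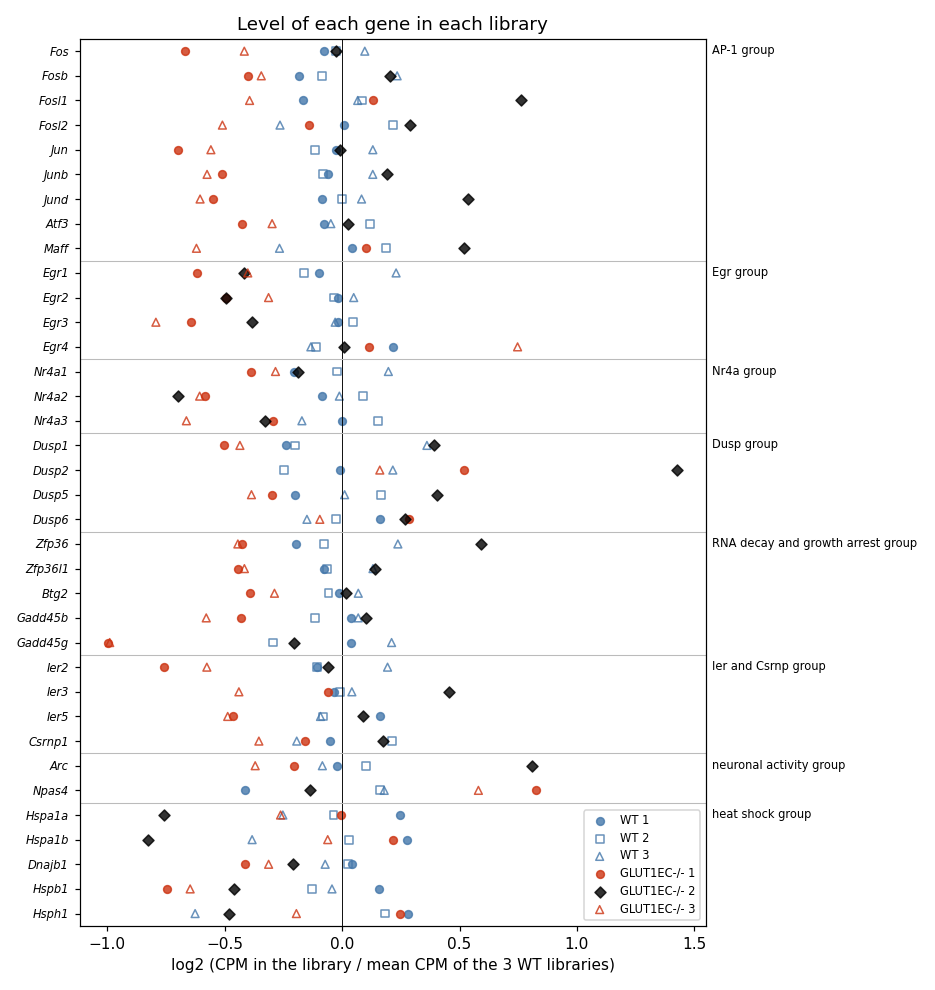
Level of each of the 36 genes in each library as log2 of its CPM over the mean CPM of the 3 WT libraries, where 0 is the WT mean. The black diamonds of GLUT1EC-/- 2 lie to the right of the red points of GLUT1EC-/- 1 and 3 in all 9 genes of the AP-1 group, and with them on the left in Egr2 and Nr4a2.

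Without GLUT1EC-/- 2, 10 of the 36 fell and 0 rose: Fos, Jun, Junb, Jund, Egr3, Nr4a2, Gadd45b, Gadd45g, Ier2 and Hspb1. That is 27.8% of the 36, against 2.21% of all genes in this direction and 5.73% in either. GLUT1EC-/- 2 was the highest of its group in 72.2% of the 36, against 42.0% of all genes. Leaving it out therefore lowers the GLUT1EC-/- mean more often in the 36, and the shares without it are not separate from that. Leaving out any other single library gave 0 calls among the 36. The fits without WT 1, WT 2, WT 3 and GLUT1EC-/- 1 called 0, 1, 5 and 32 of all genes, so their counts of 0 say little about the 36. The fit without GLUT1EC-/- 3 called 283 of all genes, against 194 with all libraries, and still 0 of the 36. Without GLUT1EC-/- 2, the other GLUT1EC-/- libraries lay below all WT libraries in 25 of the 36 (69.4%), against 17.8% of all genes in this direction. In the same fit 24 of the 36 were lower at an unadjusted p under 0.05, against 9.26%. The median log2 fold change without GLUT1EC-/- 2 was -0.37, against -0.01 over all genes. That library stands apart over all genes and not for these 36 alone, and leaving it out leaves 2 GLUT1EC-/- libraries. Its marker levels differed as well. It was the lowest of the 6 libraries in 4 of 4 erythroid and 4 of 4 choroid plexus markers. Its erythroid sum was 104 CPM against 1067 and 345 CPM in the others of its group. Its choroid plexus sum was 2881 against 5319 and 4738 CPM. It was also the lowest in 5 of 11 microglia markers, against 34.8% of all genes. Its microglia sum was 778 CPM, below the 1003 and 1608 CPM of its group but above every WT library (504 to 600 CPM). Its endothelial markers summed to 17288 CPM, the highest of the 6, against 14111 and 13984 CPM. Of the 10 endothelial markers GLUT1EC-/- 2 was the highest of the 6 in 5, against 33.3% of all genes, and the lowest in 1 (Tek). The part of these marker differences in the 10 calls was not tested.

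**Figure D3:**
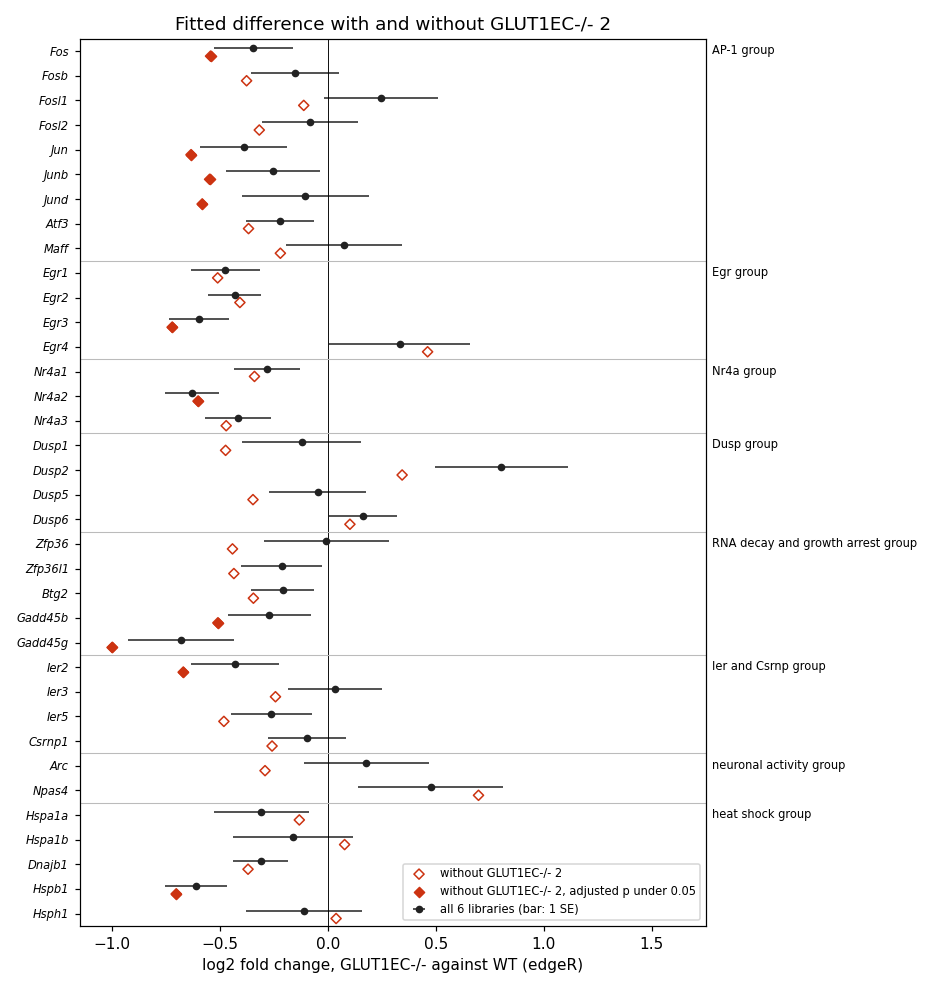
Log2 fold change of GLUT1EC-/- over WT for each of the 36 genes, from all 6 libraries (black points, bars 1 SE) and without GLUT1EC-/- 2 (red diamonds, filled where the adjusted p was under 0.05). The diamonds move left of the points in the AP-1 group, stay close to them in Egr1, Egr2 and Nr4a2, and move right in Hspa1a, Hspa1b and Hsph1.

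Egr1 to Egr3, zinc finger factors that bind GC-rich promoters soon after ERK activation, were lower in all GLUT1EC-/- libraries. Egr1, the most abundant of them, was at 5745, 5508 and 7222 CPM in WT libraries against 4019, 4611 and 4662 CPM in GLUT1EC-/-, which is 6158 ± 929 against 4431 ± 357 (mean ± SD, n = 3). Its highest GLUT1EC-/- library was below its lowest WT library, and the fold change of -0.47 (SE 0.16) did not pass (adjusted p = 0.222). Egr2 (chr10:67535475-67542188, plus strand) was at 189, 187 and 198 CPM in WT libraries against 136, 136 and 154 CPM in GLUT1EC-/-, with a fold change of -0.43 (SE 0.12, adjusted p = 0.153). Egr3 (chr14:70077203-70082614, plus strand) was at 130, 136 and 129 CPM in WT libraries against 84.4, 101 and 76.0 CPM in GLUT1EC-/-, with a fold change of -0.60 (SE 0.14, adjusted p = 0.0940).

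WT libraries of Egr2 and Egr3 lay within a narrow band, and every GLUT1EC-/- library lay below it. DESeq2 called both lower (adjusted p = 0.0324 for Egr2 and 0.0140 for Egr3). Without GLUT1EC-/- 2 the fold change of Egr3 was -0.72 (adjusted p = 0.00492) and that of Egr2 was -0.41 (adjusted p = 0.0607). Egr4 was at 1.76, 1.40 and 1.38 CPM in WT libraries against 1.64, 1.52 and 2.54 CPM in GLUT1EC-/-, with overlapping groups and 48 to 94 counts a library. Over the 4 genes the summed level was 6065, 5832 and 7550 CPM in WT libraries against 4241, 4849 and 4894 CPM in GLUT1EC-/-, a ratio of the group means of 0.719 that became 0.705 without GLUT1EC-/- 2. Egr1 makes up most of that sum.

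Nr4a genes encode orphan nuclear receptors that act without a known bound hormone and are induced through cAMP and calcium. Nr4a2 (chr2:57106830-57124003, minus strand) had the smallest adjusted p of the 36 genes. It was at 701, 791 and 737 CPM in WT libraries against 496, 458 and 488 CPM in GLUT1EC-/-, which is 743 ± 45.5 against 481 ± 19.8 (mean ± SD, n = 3). The groups lay far apart relative to their spread, GLUT1EC-/- 2 was the lowest of the 6, and the fold change was -0.63 (SE 0.13, adjusted p = 0.0588). DESeq2 called it lower with an adjusted p of 0.000213. Without GLUT1EC-/- 2 it fell as well (fold change -0.60, adjusted p = 0.0166). Within the number series its log2 ratio of mean CPM, which is not a fit, was -0.59 among the 200s and -0.64 among the 500s.

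Nr4a3 (chr4:48045153-48086447, plus strand) was at 152, 169 and 135 CPM in WT libraries against 124, 121 and 96.0 CPM in GLUT1EC-/-. Its groups did not overlap either, and the fold change was -0.42 (SE 0.15, adjusted p = 0.259). Nr4a1 (chr15:101254269-101274795, plus strand), the most abundant of the 3, was at 2025, 2296 and 2672 CPM in WT libraries against 1783, 2048 and 1915 CPM in GLUT1EC-/-. GLUT1EC-/- 2 lay just above WT 1, so the groups of Nr4a1 overlapped (fold change -0.28, SE 0.15, adjusted p = 0.449). The 3 genes summed to 2878, 3256 and 3544 CPM in WT libraries against 2403, 2627 and 2499 CPM in GLUT1EC-/-, with no overlap and a ratio of 0.778 (0.760 without GLUT1EC-/- 2).

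AP-1 is a dimer of a Jun protein with a Fos or Jun protein, and Atf3 and Maff are related factors with the same kind of dimer domain. Fosb was the most abundant of the 9 in CPM, at 5045, 5402 and 6739 in WT libraries against 4346, 6594 and 4513 in GLUT1EC-/-. Junb was at 3753, 3694 and 4279 CPM in WT libraries against 2744, 4459 and 2624 CPM in GLUT1EC-/-. Fos (chr12:85473890-85477273, plus strand) was at 3019, 3124 and 3402 CPM in WT libraries against 2001, 3123 and 2384 CPM in GLUT1EC-/-. In all 3 genes GLUT1EC-/- 1 and 3 lay below every WT library and GLUT1EC-/- 2 lay within or above the WT range. Jun was at 3049, 2863 and 3398 CPM in WT libraries against 1910, 3086 and 2107 CPM in GLUT1EC-/-. Jund, the family member that is least inducible, was at 706, 749 and 794 CPM in WT libraries against 512, 1086 and 493 CPM in GLUT1EC-/-. In Jund the second GLUT1EC-/- library was the highest of the 6 and 2.16 times the mean of the other 2 of its group.

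With all libraries the fold changes were -0.35 for Fos (SE 0.18, adjusted p = 0.446), -0.39 for Jun (SE 0.20, adjusted p = 0.434), -0.25 for Junb (SE 0.22, adjusted p = 0.636), -0.10 for Jund (SE 0.29, adjusted p = 0.891) and -0.15 for Fosb (SE 0.21, adjusted p = 0.762). Without GLUT1EC-/- 2, 4 of the 9 fell: Fos (-0.54, adjusted p = 0.0416), Jun (-0.63, adjusted p = 0.0210), Junb (-0.55, adjusted p = 0.0337) and Jund (-0.58, adjusted p = 0.0189). Fosb did not (-0.38, adjusted p = 0.190). Atf3, a stress-induced repressor, was at 714, 818 and 729 CPM in WT libraries against 561, 766 and 613 CPM in GLUT1EC-/-, and its groups overlapped only through GLUT1EC-/- 2.

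The remaining 3 genes of the group had no such order in WT against GLUT1EC-/- 1 and 3. Fosl2 was at 719, 830 and 595 CPM in WT libraries against 649, 872 and 502 CPM in GLUT1EC-/-. Maff, a small Maf protein that lacks an activation domain, was at 171, 189 and 138 CPM in WT libraries against 178, 238 and 108 CPM in GLUT1EC-/-. Fosl1, which encodes FRA-1, was at 52.4, 62.3 and 61.5 CPM in WT libraries against 64.4, 99.7 and 44.7 CPM in GLUT1EC-/-. GLUT1EC-/- 2 was the highest and GLUT1EC-/- 3 the lowest of the 6 libraries in each of these genes. Over the 9 genes the sum was 17228, 17731 and 20134 CPM in WT libraries against 12966, 20324 and 13389 CPM in GLUT1EC-/-, which is a ratio of 0.847 with all libraries and 0.718 without GLUT1EC-/- 2. That library was the highest of its group in 9 of the 9.

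**Figure D4:**
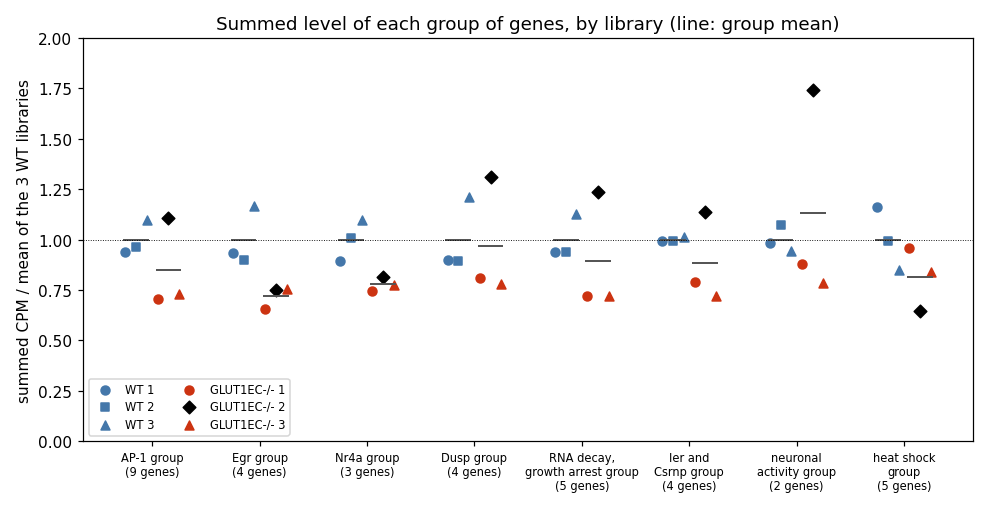
Summed CPM of each of the 8 groups of genes in each library, divided by the mean of the 3 WT libraries (linear axis from 0, short lines are group means). All GLUT1EC-/- libraries lie below all WT libraries in the Egr and Nr4a groups, GLUT1EC-/- 2 lies above its group in the AP-1, Dusp, RNA decay, Ier and neuronal activity groups, and it is the lowest of the 6 in the heat shock group.

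Dusp genes encode phosphatases that remove the activating phosphates from MAP kinases and are themselves induced by them. Dusp1, the most abundant, was at 1802, 1851 and 2735 CPM in WT libraries against 1503, 2795 and 1575 CPM in GLUT1EC-/-, and WT 3 and GLUT1EC-/- 2 were high together. Dusp6, which acts on ERK in the cytoplasm, was at 544, 478 and 439 CPM in WT libraries against 593, 587 and 456 CPM in GLUT1EC-/-. Dusp2, a nuclear phosphatase, was at 34.1, 28.9 and 39.8 CPM in WT libraries against 49.1, 92.2 and 38.3 CPM in GLUT1EC-/-. It had the largest positive fold change of the 36 (0.80, SE 0.31, adjusted p = 0.279), and GLUT1EC-/- 2 was 2.11 times the mean of the other 2 GLUT1EC-/- libraries. Without that library the fold change was 0.34 (adjusted p = 0.281). Dusp5, a nuclear phosphatase for ERK, was at 31.3, 40.3 and 36.2 CPM in WT libraries against 29.2, 47.6 and 27.5 CPM in GLUT1EC-/-. The 4 fold changes had a median of 0.06 while their summed level had a ratio of 0.967, so median and sum differ in sign, and without GLUT1EC-/- 2 the ratio was 0.795.

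Of the 5 genes of RNA decay and growth arrest, Zfp36, whose protein (tristetraprolin) binds AU-rich elements and hastens decay of short-lived mRNAs, was at 1756, 1905 and 2370 CPM in WT libraries against 1494, 3029 and 1478 CPM in GLUT1EC-/-. Its relative Zfp36l1 was at 1397, 1411 and 1615 CPM in WT libraries against 1084, 1623 and 1105 CPM in GLUT1EC-/-. Both had GLUT1EC-/- 2 as the highest of the 6 libraries and GLUT1EC-/- 1 and 3 as the lowest. Gadd45g, a stress sensor that acts on p38 kinase signalling, had the most negative fold change of the 36. It was at 418, 332 and 471 CPM in WT libraries against 204, 353 and 205 CPM in GLUT1EC-/- (-0.68, SE 0.24, adjusted p = 0.251), and GLUT1EC-/- 2 lay within the WT range. Without that library it fell (-0.999, adjusted p = 0.00693).

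Gadd45b, of the same family, was at 640, 575 and 653 CPM in WT libraries against 462, 668 and 417 CPM in GLUT1EC-/-. It too fell only without GLUT1EC-/- 2 (-0.51, adjusted p = 0.0408, against -0.27 and an adjusted p of 0.561 with it). Btg2, an antiproliferative factor that promotes mRNA deadenylation, was at 405, 393 and 429 CPM in WT libraries against 312, 414 and 335 CPM in GLUT1EC-/-. In each of the 5 genes GLUT1EC-/- 1 and 3 lay below all WT libraries, and the sum over the group had a ratio of 0.893 with all libraries and 0.721 without GLUT1EC-/- 2.

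In the Ier and Csrnp group, Ier2, a nuclear immediate early protein, was at 927, 927 and 1142 CPM in WT libraries against 590, 959 and 670 CPM in GLUT1EC-/-. Ier3, which prolongs ERK signalling and affects survival, was at 991, 1008 and 1044 CPM in WT libraries against 973, 1391 and 748 CPM in GLUT1EC-/-. Ier5 was at 880, 744 and 739 CPM in WT libraries against 570, 838 and 562 CPM in GLUT1EC-/-. Ier2 and Ier5 had GLUT1EC-/- 2 inside the WT range, and Ier3 had it above all others. Csrnp1, a nuclear factor induced by AXIN1, was at 637, 765 and 577 CPM in WT libraries against 591, 745 and 516 CPM in GLUT1EC-/-. Ier2 had a fold change of -0.43 (SE 0.20, adjusted p = 0.389) and was the single gene of the 4 that fell without GLUT1EC-/- 2 (-0.67, adjusted p = 0.0234).

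Arc and Npas4 are best known as activity genes of neurons, Arc as a capsid-like protein of synapses and Npas4 as a calcium-induced transcription factor. Arc was at 145, 158 and 139 CPM in WT libraries against 128, 258 and 114 CPM in GLUT1EC-/-. Npas4 was at 1.55, 2.31 and 2.34 CPM in WT libraries against 3.66, 1.88 and 3.09 CPM in GLUT1EC-/-, from 50 to 140 counts a library. The high Arc library was GLUT1EC-/- 2, at 2.13 times the mean of the other 2 of its group, and in Npas4 that library was the lowest of its group. Groups overlapped in both genes. Neuron markers summed to 14.5 to 17.6 CPM in WT libraries against 14.3 to 19.1 CPM in GLUT1EC-/-, with overlapping groups and no single marker above 6.99 CPM.

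The 5 heat shock genes did not move as one. Hspb1 (chr5:135887919-135889563, plus strand) encodes HSP27, a small chaperone that holds unfolded proteins and guards actin. It was at 530, 436 and 462 CPM in WT libraries against 284, 346 and 304 CPM in GLUT1EC-/-, which is 476 ± 48.4 against 311 ± 31.9 (mean ± SD, n = 3). All 3 GLUT1EC-/- libraries lay below all WT libraries (fold change -0.61, SE 0.14, adjusted p = 0.0933), DESeq2 called it lower (adjusted p = 0.00719), and without GLUT1EC-/- 2 it fell (-0.70, adjusted p = 0.0130). Of the 100-base windows in its exons 42.7% also occur in the pseudogene Hsp25-ps1, so part of its reads may have been discarded or placed there. Dnajb1 (chr8:83608193-83612653, plus strand), the HSP40 co-chaperone that hands proteins to HSP70, was at 543, 536 and 501 CPM in WT libraries against 395, 455 and 424 CPM in GLUT1EC-/-, also without overlap (fold change -0.31, SE 0.13, adjusted p = 0.312).

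Hspa1a (chr17:34969190-34972156, minus strand) and Hspa1b (chr17:34956436-34959238, minus strand) are neighbouring copies of the inducible HSP70 gene. Hspa1a was at 1685, 1385 and 1193 CPM in WT libraries against 1418, 839 and 1185 CPM in GLUT1EC-/-. Hspa1b was at 1157, 975 and 732 CPM in WT libraries against 1108, 538 and 915 CPM in GLUT1EC-/-. GLUT1EC-/- 2 was the lowest of the 6 libraries in both, at 0.645 and 0.532 times the mean of the other 2 of its group, which is the reverse of its place in the AP-1 group. Their exons share 48.6% and 49.9% of 100-base windows with another gene, mostly each other, so the split of reads between them is uncertain. The ratio of Hspa1a to Hspa1b stayed between 1.42 and 1.63 in WT and between 1.28 and 1.56 in GLUT1EC-/-.

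Hsph1, the HSP110 exchange factor for HSP70, was at 167, 156 and 89.0 CPM in WT libraries against 163, 98.4 and 120 CPM in GLUT1EC-/-, and the WT libraries alone spanned the range of all 6. The 5 genes summed to 4082, 3488 and 2977 CPM in WT libraries against 3368, 2277 and 2948 CPM in GLUT1EC-/-, with overlap and a ratio of 0.815 (0.898 without GLUT1EC-/- 2). GLUT1EC-/- 2, highest of its group in all 9 AP-1 genes, was so in 2 of these 5.

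For the genes whose groups did not overlap, the sign within each number series was fixed beforehand. Every GLUT1EC-/- library of these genes lies below every WT library, so the values here give sizes only. They are log2 ratios of mean CPM and not edgeR fits. The 200s hold GLUT1EC-/- 1 alone of its group, and the 500s hold WT 3 alone of its group. Among the 200s and then among the 500s, these log2 ratios were -0.49 and -0.64 for Egr1, -0.47 and -0.45 for Egr2, -0.66 and -0.55 for Egr3, -0.77 and -0.51 for Hspb1, -0.37 and -0.31 for Nr4a3, and -0.45 and -0.19 for Dnajb1. The AP-1 group had a median of -0.44 among the 200s and -0.08 among the 500s, which hold GLUT1EC-/- 2, and that difference was not tested. In 23 of the 36 genes the log2 ratio was below 0 in both series, and these include the 7 whose sign was fixed. The share of all genes below 0 in both series was not computed, so the 23 has no background to be read against. With the series as a term, 0 of the 36 passed and 14 of all genes did.

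The pathways around these genes were read from 6 lists of 100 related genes, of which 99 were tested. None rose or fell with all libraries, against 1.31% of all genes, and the median log2 fold change was -0.02. At an unadjusted p under 0.05, 9 were lower and 3 higher, against 6.31% and 8.16% of all genes. DESeq2 called 2 lower and 1 higher, and it called 5.48% of all genes in either direction. Without GLUT1EC-/- 2, 9 fell, against 2.21% of all genes, and 0 rose, and those that fell include Socs3, Hspa2, Ier5l, Cebpb, Klf4, Gadd45a, Fkbp4 and Dusp7. The median was then -0.13. GLUT1EC-/- 2 was the highest of its group in 67 of the 99, against 42.0% of all genes, so these counts are not separate from that either. With all 6 libraries the list medians were 0.05 for 14 ERK and stress kinase genes, 0.09 for 13 factors that act on immediate early promoters, -0.18 for 10 other AP-1 and bZIP genes, 0.02 for 12 other phosphatases and ERK inhibitors, -0.03 for 24 other immediate early genes and -0.14 for 26 heat shock factors and chaperones. The last list was the one whose summed CPM did not overlap, at 10419 to 11778 in WT and 9483 to 10214 in GLUT1EC-/-. A large part of that sum is Hsp90ab1, at 3233, 2929 and 2985 CPM in WT libraries against 2543, 2580 and 2450 CPM in GLUT1EC-/-. Gene by gene, 4 of the 26 did not overlap in this direction, against 11.2% of all genes, and 0 in the other, against 11.7%.

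The most abundant genes of each list, per exon length, are named here whatever their change. Mapk3, which encodes ERK1, was at 146 ± 10.7 against 125 ± 14.7 CPM per kilobase (mean ± SD, n = 3), and Mapkapk2, a kinase below p38, at 28.1 ± 4.11 against 35.6 ± 8.47. Srf, which binds the CArG box, was at 60.9 ± 2.57 against 63.2 ± 7.90 and Elk3 at 59.4 ± 9.64 against 68.0 ± 1.77. Atf4, the factor of the integrated stress response, was at 454 ± 49.6 against 386 ± 78.9, and the small Maf gene Mafk at 84.7 ± 14.6 against 83.3 ± 19.3. None of these passed the test.
Dusp3 was at 50.9 ± 3.59 against 44.8 ± 3.97 CPM per kilobase, and Spry1, an inhibitor of receptor kinase signalling, at 22.8 ± 3.90 against 53.8 ± 48.7, the latter through GLUT1EC-/- 2 at 318 CPM against 98.3 and 52.9 CPM in the other libraries of its group. Klf4, a shear stress factor of endothelium, was at 758 ± 26.8 against 628 ± 137 and Nfkbia, the inhibitor of NF-kappaB, at 718 ± 38.2 against 829 ± 300. Hsp90ab1 was at 1017 ± 53.9 against 842 ± 22.3 and Hspa8, the constitutive HSP70, at 577 ± 48.0 against 503 ± 27.6. Klf4 alone among these 12 fell without GLUT1EC-/- 2 (-0.47, adjusted p = 0.0440).

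Markers of other cell types moved with the genotype, and their part in the values above was not tested. Microglia markers summed to 504 to 600 CPM in WT libraries against 778 to 1608 CPM in GLUT1EC-/- and 3 of 11 rose, fibroblast markers to 86.7 to 102 and 156 to 362 CPM with 1 of 6 risen, and astrocyte markers to 32.0 to 34.4 and 55.8 to 83.7 CPM with 1 of 6 risen. The astrocyte sum was higher through Gfap, at 5.60, 5.90 and 5.44 CPM in WT libraries against 36.4, 36.6 and 59.8 CPM in GLUT1EC-/-. By value 4 of the 6 astrocyte markers, Gfap among them, were higher and 2 lower (Slc1a2 at -0.90 and Slc1a3 at -0.42). Lymphocyte markers summed to 14.9 to 17.2 and 5.58 to 11.6 CPM with 1 of 7 fallen. No marker was at 0 in every library. The sums of the 9 other marker lists, endothelium and neuron among them, overlapped between the groups.

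Neighbouring transcripts bear on 10 of the 36 counts, since the strand setting is not given in the sources used here. The exons of Fosl1, Junb, Dusp1 and Hspa1a overlap a coding gene on the other strand, and those of Jun, Jund, Dusp5, Zfp36, Zfp36l1 and Csrnp1 overlap a non-coding one. None of the 36 overlaps an exon on its own strand. The genes whose groups did not overlap are not among these 10.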

How the data were processed

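Each library's deposited file gives unnormalized read counts by gene symbol. The authors used STAR and featureCounts on GRCm38, per the submitters' processing notes, but versions, annotation and strand setting are not given in the sources used here. Reads were single-end, 100 bp, from stranded mRNA libraries, per the labels' protocols. Reads carry no molecular identifiers, so PCR copies count as reads, and p-values measure the spread between 3 mice a group.

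Counts were scaled by TMM and tested with edgeR 4.0.16's quasi-likelihood test under R 4.3.3 with genotype as the only term, after filterByExpr (minimum count 10, minimum total 15), which kept 14838 genes (biological coefficient of variation 23.2%). The alternatives tried were DESeq2 1.42.0, limma-voom 3.58.1, scaling by RLE, by upper quartile or by library size alone, non-robust dispersion, other filters, an adjusted p of 0.1, the number series as a term and each library left out. Exon lengths and overlaps were taken from GENCODE M21 (GRCm38), which placed all 36 genes, and promoters from RefSeq on GRCm38.p6. All 36 genes are described, each with its CPM in every library. From each list of related genes the called ones and the 2 most abundant per exon length are named. Related genes called without GLUT1EC-/- 2 were named after their values were seen, as was the Spry1 value. One of these genes is not reported here. The members and lists were chosen with earlier results of these data known.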

Additional observations from a re-analysis of the deposited data

How the results depend on the processing

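Calls among the 36 genes numbered 0, but 1 under upper-quartile scaling, 1 with library size alone (Egr3 both times), 4 with DESeq2 and 3 at an adjusted p of 0.1, and 0 to 10 with each library left out, the 10 without GLUT1EC-/- 2. Upper-quartile scaling called 168 of all genes and library size alone called 138. Over all genes 194 became 878 with DESeq2, 14 with the number series as a term and 429 at an adjusted p of 0.1, and 0 to 862 with each library left out (leaving out WT 1 gave 0, WT 2 gave 1, WT 3 gave 5, GLUT1EC-/- 1 gave 32, GLUT1EC-/- 2 gave 862 and GLUT1EC-/- 3 gave 283). Among the related genes 0 became 3 with DESeq2 and 0 to 9 with each library left out. The AP-1 median was -0.15 over edgeR fold changes and -0.44 over log2 ratios of mean CPM within the 200s. The median percentile per length moved from 98.97 to 98.5 with the longest coding transcript. Signs turned for Maff (-0.00087) and Ier3 (-0.0426) with library size alone, for Zfp36 (0.00022) with DESeq2, for Ier3 with upper-quartile scaling (-0.0203), limma-voom (-0.0131) and the series term (-0.0023), and for Hspa1b (0.0221) and Hsph1 (0.15) with the series term. With libraries left out in turn the fold changes ran from -0.11 to 0.48 for Fosl1, -0.32 to 0.0899 for Fosl2, -0.58 to 0.0918 for Jund, -0.22 to 0.33 for Maff, -0.47 to 0.10 for Dusp1, -0.35 to 0.10 for Dusp5, -0.44 to 0.17 for Zfp36, -0.24 to 0.22 for Ier3, -0.26 to 0.0228 for Csrnp1, -0.29 to 0.39 for Arc, -0.39 to 0.0770 for Hspa1b and -0.35 to 0.0481 for Hsph1. The Dusp median ran from -0.12 to 0.19, the log2 ratio of Dusp sums from -0.33 to 0.11 and that of the neuronal activity group from -0.27 to 0.39. The cause was not tested. Of 540 pairs of a gene and a setting 493 kept sign and side of the threshold, 16 passed only in the alternative and 31 turned sign, and 24 of the 36 genes never turned. No paired analysis was possible because the labels match no mouse of one group with a mouse of the other. The number series, which both groups span, was fitted as the term above.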
